A study of Mus musculus with 10 samples.

Results

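Fast synaptic transmission is carried by ionotropic receptors, which are ion channels opened directly by glutamate, GABA or glycine. The genes described here encode their subunits. They were the rows of the deposited table whose mouse symbol belongs to the AMPA (Gria), NMDA (Grin), kainate (Grik), delta (Grid), GABA-A (Gabra, Gabrb, Gabrg, Gabrd, Gabre and Gabrq) or glycine receptor (Glra and Glrb) families and whose mean FPKM over the 10 libraries was at least 0.3. FPKM is the read count scaled to gene length and library total. Of 56691 rows, 38 had such a symbol and 36 passed this minimum. They comprised 4 AMPA, 7 NMDA, 5 kainate, 2 delta, 14 GABA-A and 4 glycine receptor genes. Just inside the minimum were Glra1, with a mean of 0.475 FPKM, and Grin3b, with 0.533 FPKM. Just outside were Glra4, with 0.202 FPKM, and the cerebellar granule cell subunit gene Gabra6, with 0.007 FPKM.

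RNA was sequenced from the medial habenula of 10 wild-type mice, with 1 library per mouse. The 6 withdrawal mice received nicotine ditartrate intraperitoneally, at 4 mg/kg and 2 injections a day, for 14 days, with saline from day 15. The 4 control mice received intraperitoneal saline for 17 days, and tissue of both groups was taken on day 17. The source label names sorted cholinergic neurons, while the series record names medial habenula tissue and no sort. No age, sex, litter or batch is given in the labels.

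AMPA and kainate receptors pass fast excitatory current, and NMDA receptors pass a slower, calcium-rich current that depends on the Grin2 or Grin3 subunit that joins Grin1. GABA-A and glycine receptors are chloride channels. Their alpha subunits set the kinetics, drug sensitivity and location of the receptor. In the medial habenula, glutamate and acetylcholine are released by the same neurons onto the interpeduncular nucleus, and GABA can excite rather than inhibit the cells. In bulk RNA, fewer cells of a type and less RNA per cell cannot be told apart.

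Library totals ran from 15023448 to 22026333 counts, and the 36 receptor genes took 0.328% to 0.455% of the counts of 8 libraries. They took 0.510% of withdrawal 2 and 0.816% of control 2. These 2 libraries also stood apart in the 9 ventral medial habenula markers (Chat, Slc18a3, Slc5a7, Tac2, Chrnb4, Chrna3, Pou4f1, Nr4a2 and Gpr151). Their summed level was 20.6 CPM (counts scaled to the TMM-adjusted library total) in withdrawal 2 and 88.3 CPM in control 2, while the other 8 libraries ranged upward of 836 CPM. The comparison is therefore given for all 10 libraries and for the 8 libraries without withdrawal 2 and control 2. The labelled cell type does not stand alone in any library, since oligodendrocyte, astrocyte and microglial markers were present in all 10. The 5 oligodendrocyte markers (among them Mbp, Mog and Mag) summed to at least 5519 CPM in each.

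The most abundant receptor gene per length was Gria1, an AMPA receptor pore subunit, at 95.8 to 164 FPKM in the 8 libraries. By mean level it was followed by Glrb, the glycine receptor beta subunit that binds the scaffold gephyrin, at 37.3 to 48.2 FPKM. Gria2, the AMPA subunit that limits calcium entry, lay at 23.1 to 44.9 FPKM, and Gabra3, a GABA-A alpha subunit, at 8.66 to 32.7 FPKM. In each of the 8 libraries Gria1 was higher than every other AMPA gene, with Gria4 at 18.1 to 32.9 FPKM and Gria3 at 5.52 to 12.8 FPKM. Among NMDA receptor genes the obligatory subunit Grin1 was highest, at 16.4 to 23.8 FPKM, and Grin3a, a subunit that lowers calcium entry, averaged 11.4 ± 0.784 FPKM in withdrawal and 7.67 ± 1.34 FPKM in controls (SD, n = 5 and 3). Grin2a averaged 3.69 ± 0.421 FPKM in withdrawal and 8.39 ± 3.24 FPKM in controls, so that by mean Grin3a was second in withdrawal but not in controls. The order of the control means came from control 3, where Grin3a had 6.17 FPKM and Grin2a 12.03 FPKM. Grin3a was above Grin2a in control 1 (8.77 against 7.35 FPKM) and control 4 (8.06 against 5.80 FPKM). The kainate receptor gene with the highest level was Grik5, a subunit that needs a partner to form a channel, at 20.5 to 29.5 FPKM, and the other 4 lay between 1.10 and 7.35 FPKM. Glra2, an alpha subunit of the glycine receptor, lay at 3.27 to 12.4 FPKM, above Glra3 (0.590 to 3.89 FPKM) and Glra1 (0.0800 to 1.03 FPKM) in every library of the 8.

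**Figure D1:**
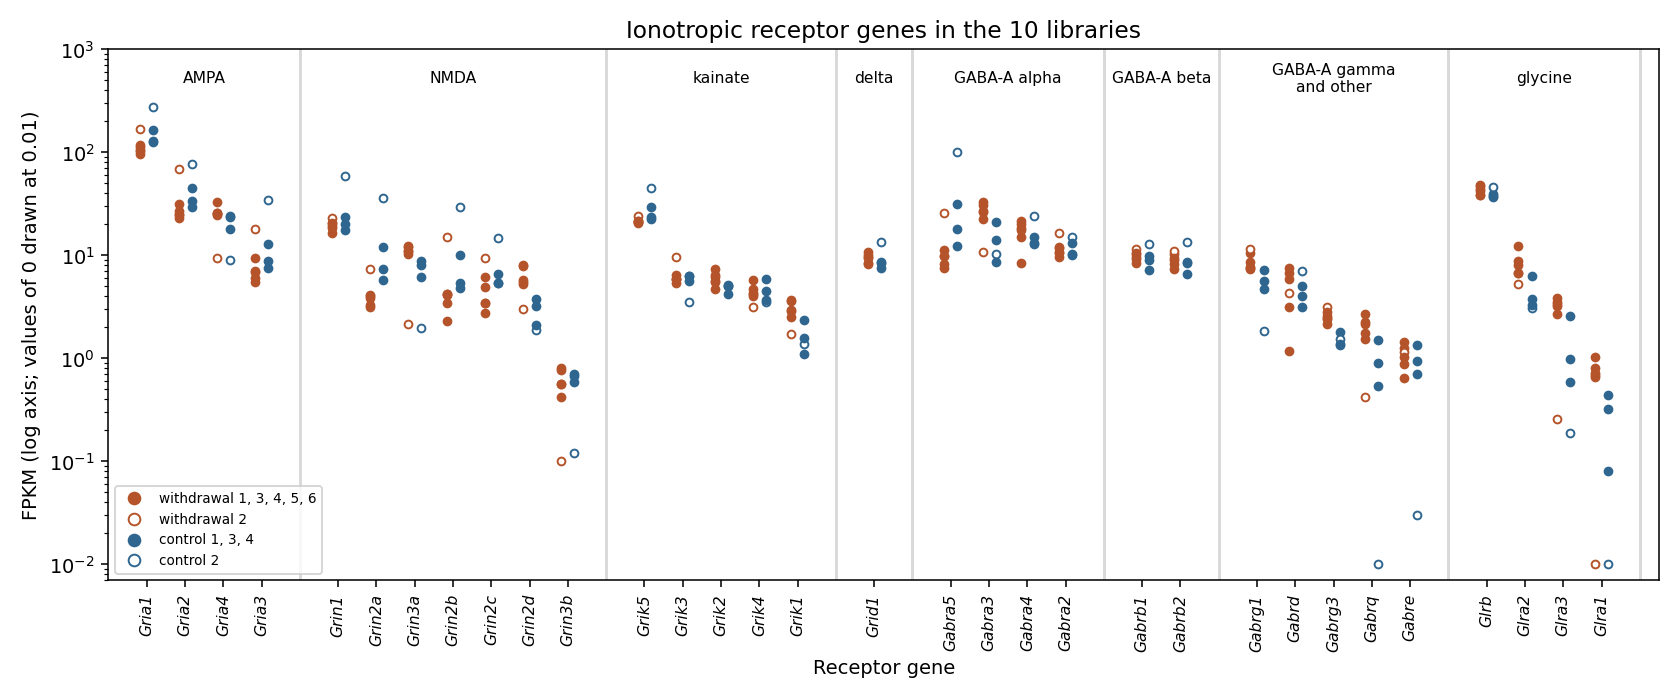
Level of 32 of the 36 receptor genes (FPKM, log axis) in each library, by receptor family. Each point is a library, with withdrawal left of control for each gene, and open points are withdrawal 2 and control 2. Gria1 was the highest receptor gene, and Glra1 had 0 FPKM in withdrawal 2 and control 2.

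Several receptor genes of withdrawal 2 and control 2 lay outside the range of the other 8 libraries, and these values are given as a description. Grin3a had 2.15 FPKM in withdrawal 2 and 1.97 FPKM in control 2, below all of the other 8. The same held for Glra3 (0.260 FPKM in withdrawal 2 and 0.190 FPKM in control 2), Gria4 (9.52 and 9.10 FPKM), Gabrq, which encodes the theta subunit (0.420 and 0.01 FPKM), and Glra1 (0 FPKM in both). Gria1, Gria2, Gria3 and Grin2b were higher in both of these libraries than in any of the other 8. Control 2 also held the highest Gabra5, at 100.3 FPKM, and the highest Grin2a, at 35.7 FPKM. Gabra5 encodes a mostly extrasynaptic alpha subunit known from the hippocampus. Grin2a encodes the NMDA receptor subunit that predominates in adult forebrain. Control 2 had 346 CPM of Neurod6, a transcription factor of hippocampal and cortical excitatory neurons. Withdrawal 2 had 35.3 CPM, and the other 8 libraries had 1.06 to 56.6 CPM.

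Over all 10 libraries no receptor gene was called as changed in withdrawal. Of the 36 genes, 0 passed in edgeR (quasi-likelihood test, 2-sided, Benjamini-Hochberg adjustment over all 19256 tested genes, threshold 0.05), against 0.140% of all tested genes. An unadjusted p under 0.05 was found for 11 of the 36, against 14.8% of all tested genes. Limma on log2(FPKM + 1) called 0 of the 36. DESeq2 called 4, which were Grin2d, Glra2 and Gabrg3 as higher and Grin2a as lower, against 2.15% of all tested genes. The smallest edgeR adjusted p was 0.158, for Gabrg3, which encodes a GABA-A gamma subunit. Its level was 30.5, 37.97, 28.4, 28.4, 33.4 and 24.5 CPM in withdrawal 1 to 6, against 21.2, 22.1, 16.5 and 15.5 CPM in controls 1 to 4. All 6 withdrawal libraries lay above all 4 controls for Gabrg3, and the same held for Gabrg1, another gamma subunit gene. For Gabrg1 withdrawal 6 (55.88 CPM) and control 1 (55.85 CPM) were nearly equal. For these 2 of 36 genes the groups did not overlap, against 3.19% of all tested genes. The median log2 change of the 36 was -0.08, and that of all tested genes was 0.0069. Without withdrawal 2 alone, edgeR called 4 receptor genes as higher (Grin2d, Grik1, Gabra3 and Gabrg3) and 0 as lower, against 4.16% of all tested genes.

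In the 8 libraries without withdrawal 2 and control 2, 12 of the 36 receptor genes changed in withdrawal, 8 higher and 4 lower. Of the 8, Glra1 passed the FPKM minimum only through the withdrawal libraries, so its call as higher rests in part on the values that made it a member. The genes that rose encode NMDA receptor subunits (Grin2d and Grin3a), a kainate receptor subunit (Grik1), GABA-A receptor subunits (Gabra3, Gabrg3 and Gabrq) and glycine receptor alpha subunits (Glra1 and Glra2). Among the genes that fell were Gria1, Grin2a and Gabra5. The share called was 33.3% of the receptor genes and 11.0% of all 19256 tested genes, of which 4.80% were called higher and 6.17% lower. The groups did not overlap for 17 of the 36, against 20.8% of all tested genes. The median log2 change of the 36 was 0.17, and that of all tested genes was 0.01. This comparison has 5 withdrawal and 3 control libraries, and the 2 libraries were left out because their marker levels had been seen.

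**Figure D2:**
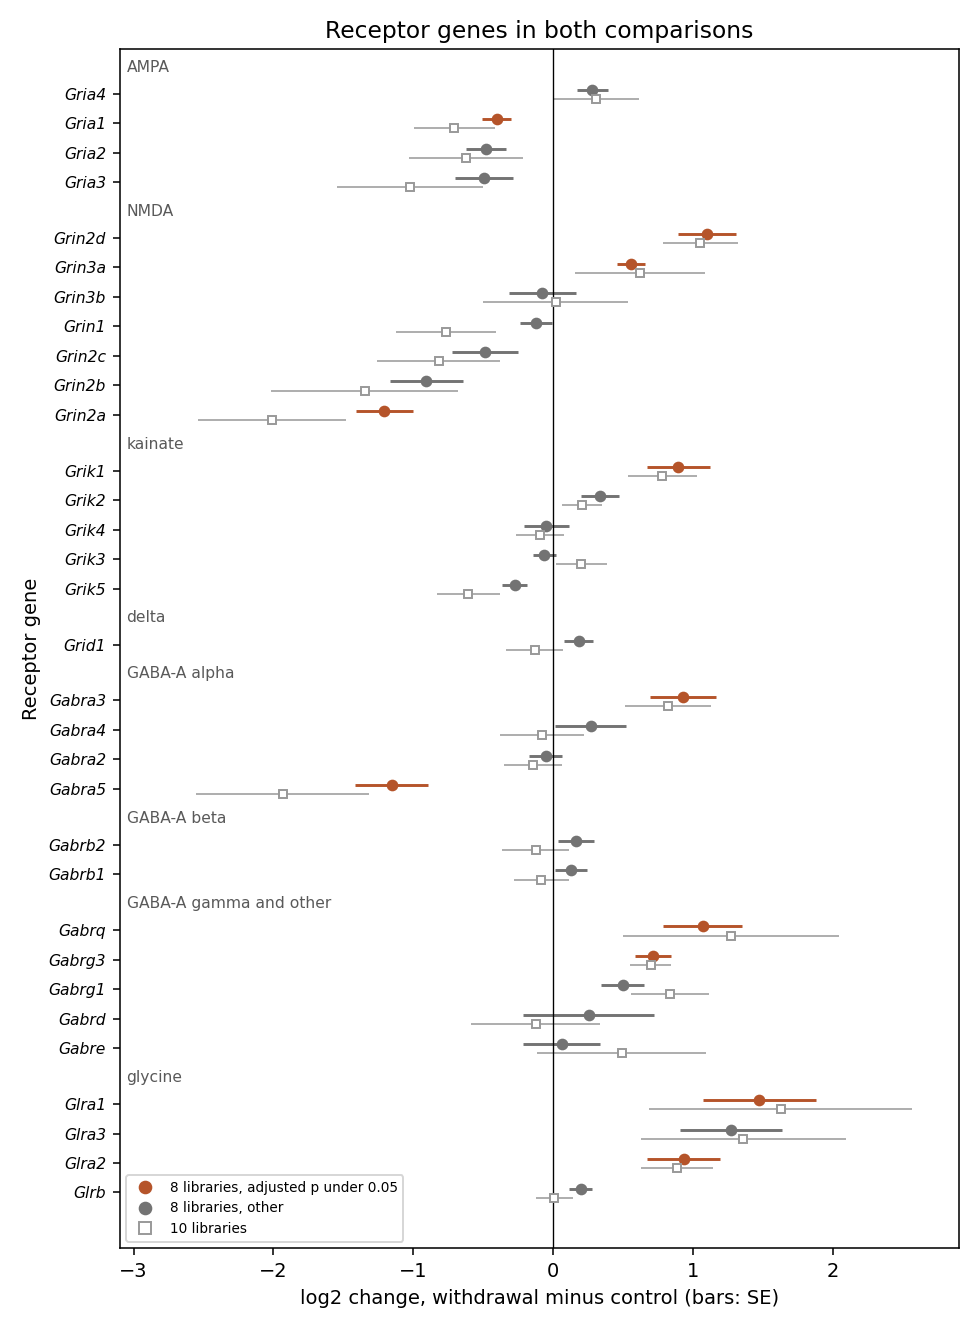
Log2 change, withdrawal minus control, of 32 of the 36 receptor genes with its SE, in the 8-library comparison (circles, coloured where the adjusted p is under 0.05) and in all 10 libraries (open squares). The 11 coloured genes also lie on the same side of 0 in all 10, where none passed.

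Among NMDA receptor genes, Grin2d and Grin3a rose while Grin2a fell. Grin2d (ENSMUSG00000002771) encodes the subunit with the slowest decay and weak magnesium block, known from the diencephalon and interneurons. It had 52.9, 37.6, 34.7, 51.7 and 34.9 CPM in withdrawal 1, 3, 4, 5 and 6, against 24.4, 14.1 and 20.9 CPM in controls 1, 3 and 4. Every withdrawal library lay above every control, and withdrawal 1 and 5 were highest. Grin2d had 20.3 CPM in withdrawal 2 and 15.3 CPM in control 2, with a 10-library log2 change of 1.05 (edgeR adjusted p = 0.223). In the 8 libraries the means were 42.3 ± 9.15 CPM in withdrawal and 19.8 ± 5.20 CPM in controls (SD, n = 5 and 3; log2 change 1.10, SE 0.207, edgeR adjusted p = 0.0108). Grin3a (ENSMUSG00000039579) had 134, 146, 125, 147 and 130.0 CPM in withdrawal 1, 3, 4, 5 and 6, against 105, 76.2 and 96.3 CPM in controls 1, 3 and 4. These groups did not overlap either (log2 change 0.56, SE 0.102, edgeR adjusted p = 0.00965). Including the libraries left out, Grin3a had 26.4 CPM in withdrawal 2 and 29.4 CPM in control 2, with a 10-library log2 change of 0.62 (edgeR adjusted p = 0.532).

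Grin2a (ENSMUSG00000059003) had 58.8, 71.04, 67.2, 71.5 and 54.3 CPM in withdrawal 1, 3, 4, 5 and 6, against 129, 217 and 101 CPM in controls 1, 3 and 4. The 5 withdrawal libraries lay close together below all 3 controls, and control 3 was the highest. The means were 64.6 ± 7.65 CPM in withdrawal and 149 ± 60.3 CPM in controls (SD, n = 5 and 3; log2 change -1.21, SE 0.205, edgeR adjusted p = 0.00724). Grin2a had 133 CPM in withdrawal 2 and 779 CPM in control 2, with a 10-library log2 change of -2.01 (edgeR adjusted p = 0.237). Grin2b, the subunit that predominates early in development, was also lower in all 5 withdrawal libraries than in any control, at 54.4 to 104 CPM against 118 to 251 CPM, but missed the threshold (log2 change -0.91, SE 0.262, edgeR adjusted p = 0.0526). Grin1 had 199, 183, 176, 196 and 152 CPM in withdrawal 1, 3, 4, 5 and 6, against 191, 232 and 169 CPM in controls 1, 3 and 4. These groups overlapped (log2 change -0.12, SE 0.116, edgeR adjusted p = 0.532), and neither Grin2c (log2 change -0.49) nor Grin3b (-0.08) passed.

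Of the summed FPKM of Grin2a, Grin2b, Grin2c and Grin2d, Grin2d made up 31.7% to 39.9% in the 5 withdrawal libraries and 6.87% to 17.03% in the 3 controls. The share of Grin2a was 15.3% to 24.2% in the 5 withdrawal libraries and 30.1% to 39.1% in the 3 controls. Per length, Grin2d was the highest of the 4 in each of these 5 withdrawal libraries, and Grin2a was the highest in all 4 controls, control 2 included. In withdrawal 2 Grin2b was the highest, at 43.2% of the sum.

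**Figure D3:**
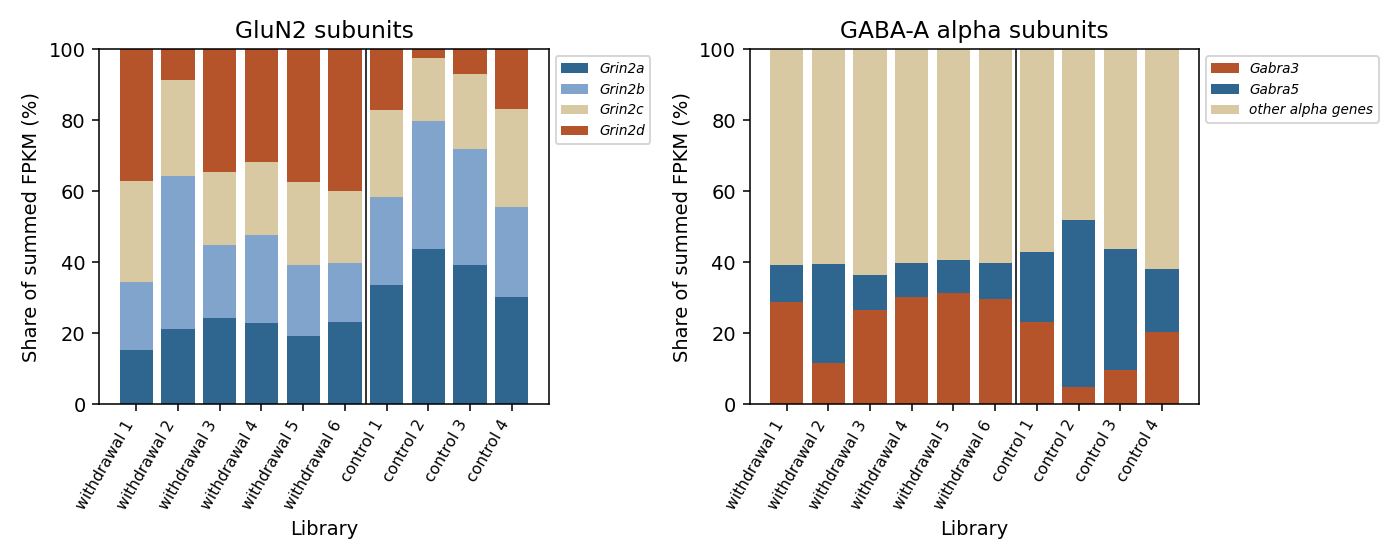
Share of each GluN2 gene in their summed FPKM (left), and of Gabra3, Gabra5 and the other GABA-A alpha genes together in theirs (right), in each library, with the 6 withdrawal libraries left of the 4 controls. Grin2d holds 31.7% to 39.9% of the GluN2 sum in 5 of the withdrawal libraries, and the share of Gabra5 is higher in control 2 than in any other library.

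The AMPA receptor gene Gria1 (ENSMUSG00000020524) had 570.0, 684, 674, 620.2 and 605 CPM in withdrawal 1, 3, 4, 5 and 6, against 748, 995 and 755 CPM in controls 1, 3 and 4. All 5 withdrawal libraries were below the 3 controls, of which control 3 was the highest (log2 change -0.40, SE 0.102, edgeR adjusted p = 0.0332). Gria1 had 1018 CPM in withdrawal 2 and 2041 CPM in control 2, with a 10-library log2 change of -0.71 (edgeR adjusted p = 0.311). Gria2 (-0.48, edgeR adjusted p = 0.0591) and Gria3 (-0.49, edgeR adjusted p = 0.152) had log2 changes below 0 and did not pass. Gria4, a subunit with fast kinetics, had a log2 change of 0.28 and did not pass either (edgeR adjusted p = 0.136).

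Among kainate receptor genes 1 of 5 rose. Grik1 (ENSMUSG00000022935), a pore-forming subunit, had 24.6, 19.3, 16.6, 24.1 and 18.6 CPM in withdrawal 1, 3, 4, 5 and 6, against 15.6, 7.44 and 10.4 CPM in controls 1, 3 and 4. The lowest withdrawal library was above the highest control (log2 change 0.89, SE 0.222, edgeR adjusted p = 0.0313). It had 11.6 CPM in withdrawal 2 and 11.2 CPM in control 2, with a 10-library log2 change of 0.78 (edgeR adjusted p = 0.267). Grik5 had 108, 103, 109, 108 and 106 CPM in withdrawal 1, 3, 4, 5 and 6, against 113, 153 and 120.1 CPM in controls 1, 3 and 4. It was lower in all 5 withdrawal libraries without passing (log2 change -0.28, SE 0.0907, edgeR adjusted p = 0.0789). Grik2, Grik3 and Grik4 had log2 changes of 0.33, -0.06 and -0.05, and none passed.

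The delta receptors are glutamate receptor relatives that bind cerebellins and organise synapses. Grid1 did not pass, with 56.4, 62.8, 48.1, 58.7 and 48.4 CPM in withdrawal 1, 3, 4, 5 and 6, against 50.7, 51.1 and 43.5 CPM in controls 1, 3 and 4 (log2 change 0.18, SE 0.104, edgeR adjusted p = 0.297). The groups overlapped.

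GABA-A alpha genes changed in opposite directions. Gabra3 (ENSMUSG00000031343), an alpha subunit known from monoaminergic and brainstem neurons, had 118, 103, 102, 126 and 84.2 CPM in withdrawal 1, 3, 4, 5 and 6, against 80.7, 34.1 and 53.4 CPM in controls 1, 3 and 4. The groups were apart, though withdrawal 6 and control 1 were close (log2 change 0.93, SE 0.234, edgeR adjusted p = 0.0329). Gabra3 had 42.3 CPM in withdrawal 2 and 48.8 CPM in control 2, with a 10-library log2 change of 0.82 (edgeR adjusted p = 0.293). Gabra5 (ENSMUSG00000055078) had 32.8, 28.8, 23.9, 29.1 and 21.7 CPM in withdrawal 1, 3, 4, 5 and 6, against 52.7, 93.95 and 35.7 CPM in controls 1, 3 and 4. The lowest control, control 4, was close to the highest withdrawal library, and control 3 was the highest (log2 change -1.16, SE 0.259, edgeR adjusted p = 0.0208). Gabra5 had 77.5 CPM in withdrawal 2 and 363 CPM in control 2, with a 10-library log2 change of -1.93 (edgeR adjusted p = 0.268). Of the summed FPKM of the 5 alpha genes, Gabra3 made up 26.5% to 31.2% in the 5 withdrawal libraries and 9.46% to 23.1% in the 3 controls, and Gabra5 9.41% to 10.5% in the 5 withdrawal libraries and 17.8% to 34.3% in the 3 controls.

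Gabra2 and Gabra4 had log2 changes of -0.05 and 0.27, neither past the threshold. Gabra4 was lowest in withdrawal 6, at 49.4 CPM, where the remaining 4 withdrawal libraries had 90.5 to 128 CPM.

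Gabrb1 and Gabrb2 had log2 changes of 0.12 and 0.16 and did not pass. Of the other GABA-A genes, Gabrg3 (ENSMUSG00000055026) rose, at 29.04 ± 3.28 CPM in withdrawal and 17.8 ± 3.06 CPM in controls in the 8 libraries (SD, n = 5 and 3; log2 change 0.71, SE 0.130, edgeR adjusted p = 0.00953). Gabrq (ENSMUSG00000031344), a subunit known from the hypothalamus and monoaminergic nuclei, had 8.15, 11.3, 9.27, 11.8 and 13.7 CPM in withdrawal 1, 3, 4, 5 and 6, against 7.95, 2.93 and 4.73 CPM in controls 1, 3 and 4. Withdrawal 1 and control 1 were nearly equal and the groups did not overlap (log2 change 1.07, SE 0.284, edgeR adjusted p = 0.0395). Gabrq had 2.27 CPM in withdrawal 2 and 0.0552 CPM in control 2, with a 10-library log2 change of 1.27 (edgeR adjusted p = 0.451).

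Gabrg1, another gamma subunit gene, was higher in each of the 5 withdrawal libraries, though withdrawal 6 and control 1 were nearly equal. It missed the threshold (log2 change 0.50, SE 0.155, edgeR adjusted p = 0.0674). Gabrd, the subunit of tonic receptors in thalamus and granule cells, ranged from 3.25 CPM in withdrawal 6 to 20.99 CPM in withdrawal 3 and did not pass (log2 change 0.25). Gabre, which encodes the epsilon subunit, had a log2 change of 0.06 and did not pass.

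Of the glycine receptor genes, Glra2 rose. Glra2 (ENSMUSG00000018589), the alpha subunit that predominates in the embryo, had 38.5, 26.8, 20.6, 25.03 and 20.2 CPM in withdrawal 1, 3, 4, 5 and 6, against 19.5, 10.4 and 11.5 CPM in controls 1, 3 and 4. Withdrawal 6 was only just above control 1, and withdrawal 1 was the highest (log2 change 0.93, SE 0.259, edgeR adjusted p = 0.0455). Glra2 had 16.6 CPM in withdrawal 2 and 11.9 CPM in control 2, with a 10-library log2 change of 0.89 (edgeR adjusted p = 0.265). Glra1 (ENSMUSG00000000263), the main adult alpha subunit of the spinal cord and brainstem, was low throughout, with 1.71, 1.60, 2.43, 1.56 and 1.86 CPM in withdrawal 1, 3, 4, 5 and 6, against 1.04, 0.183 and 0.741 CPM in controls 1, 3 and 4. Its mean over all 10 libraries was 0.652 FPKM in withdrawal and 0.210 FPKM in controls, the second below the minimum of 0.3, so its difference is given as a description. The libraries had 29, 32, 42, 32 and 35 counts in withdrawal and 16, 3 and 16 counts in the controls (log2 change 1.47, SE 0.403). Glra1 was at 0 counts in withdrawal 2 and control 2, with a 10-library log2 change of 1.62. Glra3 was higher in all 5 withdrawal libraries, at 24.2 to 35.3 CPM against 5.43 to 23.3 CPM, and missed the threshold (log2 change 1.27, SE 0.366, edgeR adjusted p = 0.0512). Glrb had 217, 217, 192, 204 and 174 CPM in withdrawal 1, 3, 4, 5 and 6, against 182, 175 and 169 CPM in controls 1, 3 and 4 and did not pass (log2 change 0.20, SE 0.0814, edgeR adjusted p = 0.15).

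**Figure D4:**
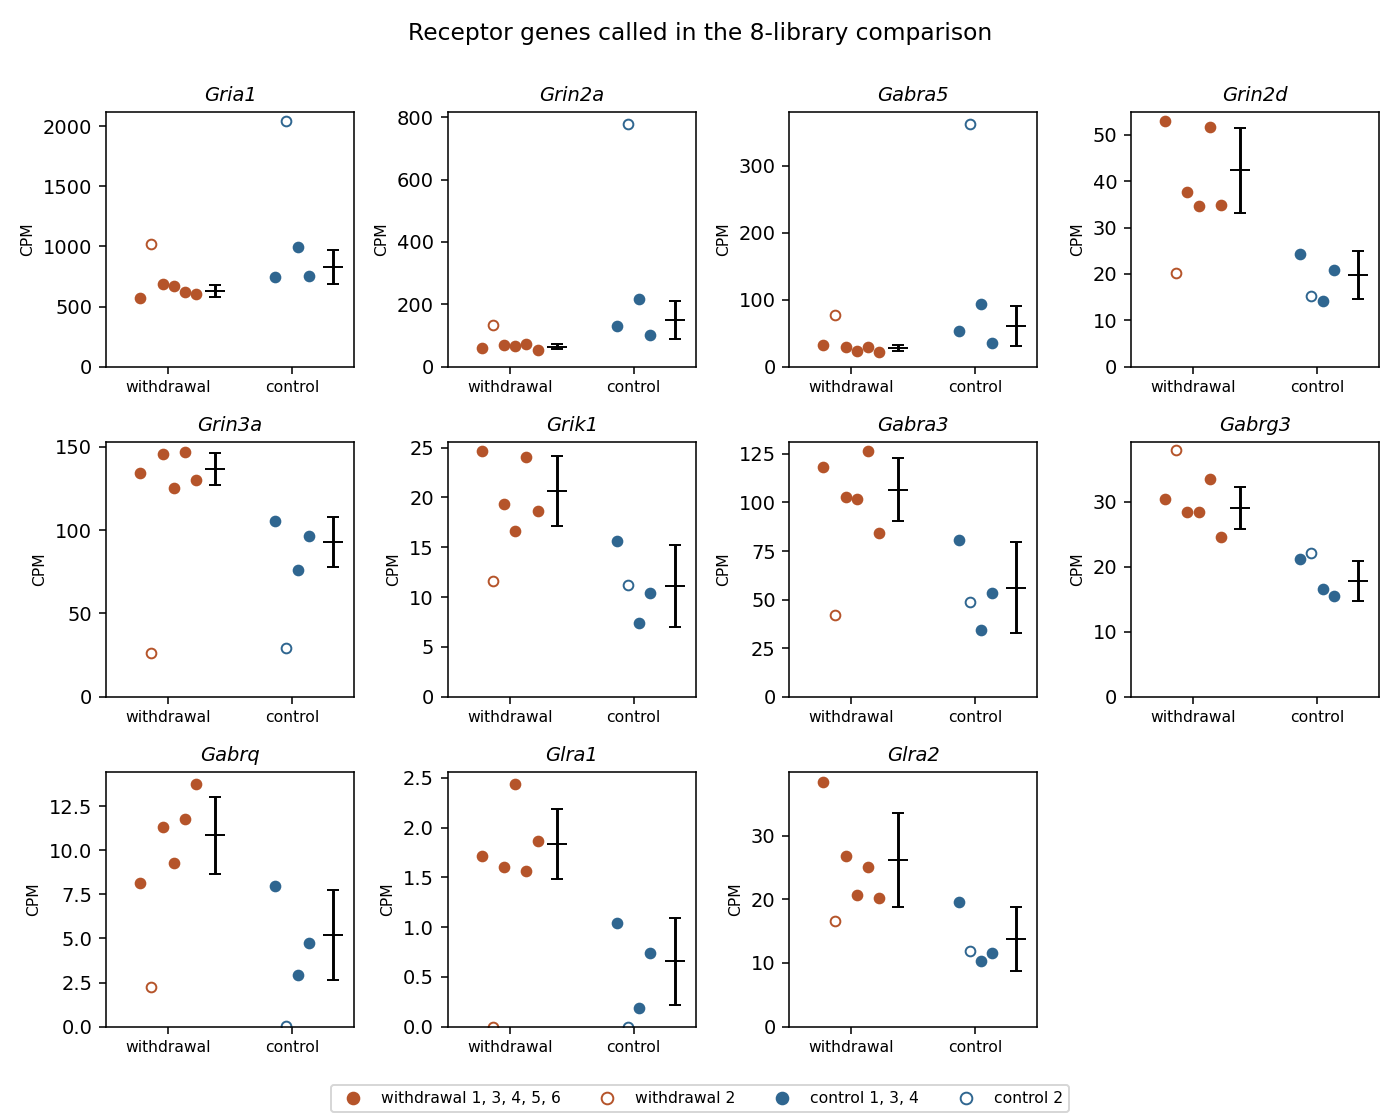
CPM of 11 of the 12 receptor genes called in the 8-library comparison, with withdrawal left of control and each axis starting at 0. Points are libraries, open points are withdrawal 2 and control 2, and the black bars are means ± SD of the filled points. The first 3 panels hold genes that fell, all highest in control 2.

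How far these calls rested on single libraries differed between genes. Grin2a, Grin2d, Grin3a and Gabrg3 were called in each of the 8 settings that leave out 1 of the 8 libraries. Gabra5 was called in 7 of them, Gria1 in 5, Grik1 in 4, Gabrq in 3, and Gabra3 and Glra2 in 2. Glra1 is left out of this list, since it passed the FPKM minimum only through the withdrawal libraries. Without control 3, 4 of the 36 were called, against 4.41% of all tested genes, and without withdrawal 5 there were 5, against 5.86%. Without withdrawal 1, 3 or 4 there were 7 each, against 6.88%, 7.03% and 8.25% in that order. Without control 3 the log2 change of Grin2a was -0.83 (edgeR adjusted p = 0.00711), that of Grin2d 0.91 (edgeR adjusted p = 0.0372), that of Grin3a 0.43 (edgeR adjusted p = 0.019) and that of Gabrg3 0.66 (edgeR adjusted p = 0.0399). Gabra5 then had -0.69 (edgeR adjusted p = 0.0609), Gabra3 0.67 (edgeR adjusted p = 0.0762) and Gria1 -0.25 (edgeR adjusted p = 0.0998). Apart from Glra1, which is not counted here, all of the 12 kept their direction in each of these settings. The log2 change of Gabra4, Gabrb1, Gabrb2, Gabrd, Grid1, Grik3 and Grin3b had the opposite sign over all 10 libraries, at -0.08, -0.08, -0.13, -0.13, -0.13, 0.20 and 0.02 in that order, and none of these genes passed in either comparison.

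Markers of neighbouring cell types moved with these changes. The 8 markers of hippocampal and cortical excitatory neurons (among them Neurod6, Neurod2, Slc17a7 and Prox1) summed to 425 to 507 CPM in the 5 withdrawal libraries and 576 to 1079.9 CPM in the 3 controls, and 6 of the 8 had lower means in withdrawal. Of the 8, 3 were called lower (Neurod6, Neurod2 and Prox1), against 6.17% of all tested genes. Slc17a7, the largest of the 8, is also known from the medial habenula. Neurod6 lay at 1.06 to 1.96 CPM in these withdrawal libraries, against 15.8, 56.6 and 3.20 CPM in controls 1, 3 and 4. Control 3, with the most Neurod6 of the 8, was also the highest of the 8 for Gria1, Grin2a and Gabra5, and control 2 and withdrawal 2 were above the 5 other withdrawal libraries for these genes. The part of this marker difference in the lower levels of Grin2a, Gabra5 and Gria1 was not tested.

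The 4 lateral habenula markers (Pcdh10, Gap43, Htr2c and Vgf) summed to 669 to 746 CPM in the 5 withdrawal libraries and 443 to 648 CPM in the 3 controls, with higher means in withdrawal for 3 of 4. Gap43 and Vgf were called higher. Vgf had its highest level of the 10 libraries in control 2, at 196 CPM. Pcdh10, at 152 CPM in withdrawal 2 and 134 CPM in control 2, lay within the range of the other 8. Htr2c, the remaining marker, went with the choroid plexus marker Ttr in the libraries left out. It had 279 CPM in withdrawal 2 (Ttr 11693 CPM) and 11.5 CPM in control 2 (Ttr 27.03 CPM), so the sum does not measure the lateral habenula alone. The 8 thalamic markers (Rora, Ramp3, Lef1, Tnnt1, Prkcd, Slitrk6, Synpo2 and Cplx1) summed to 661 to 1126 CPM in the 5 withdrawal libraries and 588 to 787 CPM in the 3 controls, with higher means for 8 of 8. Lef1 and Slitrk6 were called higher, as were 4.80% of all tested genes. Cplx1 alone had 401 to 555 CPM in the 5 withdrawal libraries and 365 to 462 CPM in the 3 controls. It also had 381 CPM in control 2, where Slitrk6 had 2.76 CPM and Tnnt1 1.60 CPM, so the sum is not particular to thalamic neurons. Control 3 was the lowest of the 8 libraries for Gap43 (85.5 CPM) and for 7 of the 8 receptor genes that rose, all but Gabrg3. The 9 ventral medial habenula markers summed to 836 to 1230.5 CPM in the 5 withdrawal libraries and 924 to 1219 CPM in the 3 controls, which overlapped, with higher means in withdrawal for 9 of 9. The 4 dorsal medial habenula markers (Tac1, Wif1, Calb1 and Col16a1) summed to 285 to 330.1 CPM in the 5 withdrawal libraries and 242 to 277 CPM in the 3 controls, which did not overlap, with higher means for 4 of 4. None of these 13 was called. Each of the 4 dorsal markers overlapped between the groups on its own. Calb1, at 105 to 177 CPM in the 5 withdrawal libraries and 116 to 139 CPM in the 3 controls, was a large part of their sum. It also had 100 CPM in withdrawal 2 and 132 CPM in control 2, so it is not particular to libraries rich in medial habenula markers. The 9 GABAergic markers (Gad1, Gad2, Slc32a1, Dlx1, Dlx2, Dlx5, Sst, Pvalb and Npy) summed to 94.3 to 259 CPM in the 5 withdrawal libraries and 203 to 389 CPM in the 3 controls, with Dlx1, Dlx2 and Dlx5 at 0 counts in withdrawal 3. Their means were lower in withdrawal for 9 of 9, and 1 was called lower, Npy, against 6.17% of all tested genes. The part of these differences in the receptor genes that rose was not tested. Oligodendrocyte markers summed to 5519 to 9460.2 CPM in the 5 withdrawal libraries and 10578 to 11656 CPM in the 3 controls, and all 5 fell in withdrawal.

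**Figure D5:**
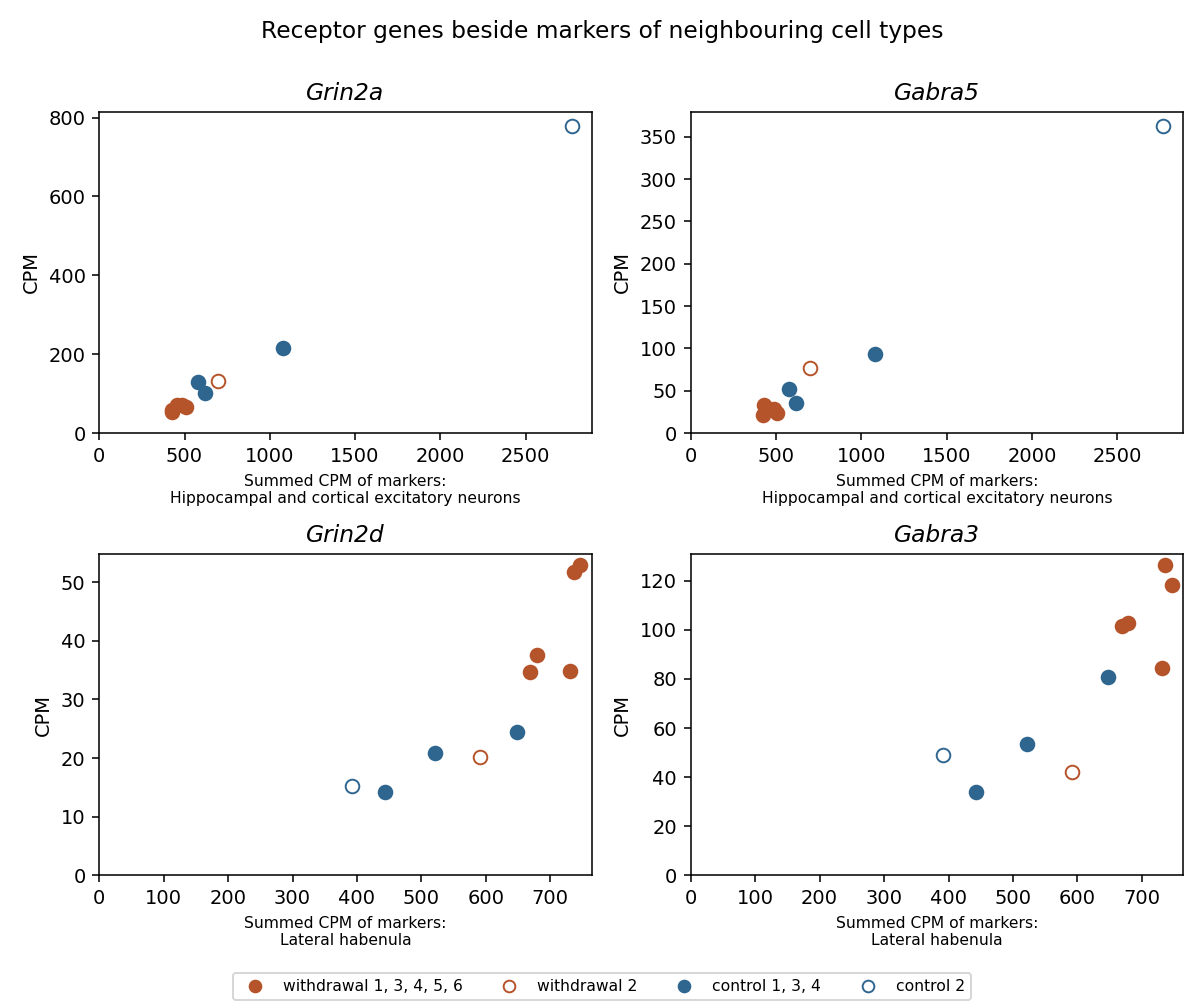
CPM of Grin2a and Gabra5 against the summed CPM of 8 hippocampal and cortical neuron markers (top), and of Grin2d and Gabra3 against the summed CPM of 4 lateral habenula markers (bottom), in the 10 libraries. Open points are withdrawal 2 and control 2. Control 2 lies far right in the upper panels, and the 5 withdrawal libraries lie right of the 3 controls in the lower panels. The lower axis includes Htr2c, which had 279 CPM in withdrawal 2 and 11.5 CPM in control 2, and so is not particular to the lateral habenula.

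Many GABA-A receptor genes sit in clusters, and changed neighbours moved in opposite directions in one cluster and in the same direction in another. In RefSeq annotation of GRCm38.p6, Gabrg3 and Gabra5 are consecutive protein-coding genes on chromosome 7. Gabrg3 rose by 0.71 on the log2 scale while its neighbour Gabra5 had a log2 change of -1.16. Gabra3 and Gabrq are consecutive on chromosome X, and both rose. Gabre, with 1 protein-coding gene between it and Gabra3, had 0.06. Of the cluster on chromosome 5 (Gabrg1, Gabra2, Gabra4 and Gabrb1), no gene passed.

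The 250 bases before the RefSeq start of these 4 changed cluster genes are shown because neighbours with opposite and with shared directions can be compared in them. They are printed 5′ to 3′ on the strand of the gene, with CpG dinucleotides in capitals. Gabra3 has 2 windows in the table, and its first is shown.
Gabrg3 (RefSeq, GRCm38.p6, chr7:57387216-57387465, minus strand): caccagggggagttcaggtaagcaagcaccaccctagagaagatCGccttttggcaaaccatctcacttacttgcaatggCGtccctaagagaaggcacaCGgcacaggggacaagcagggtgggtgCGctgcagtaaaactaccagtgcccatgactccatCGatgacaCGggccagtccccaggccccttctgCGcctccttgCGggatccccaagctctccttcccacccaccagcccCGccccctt
Gabra5 (RefSeq, GRCm38.p6, chr7:57510060-57510309, minus strand): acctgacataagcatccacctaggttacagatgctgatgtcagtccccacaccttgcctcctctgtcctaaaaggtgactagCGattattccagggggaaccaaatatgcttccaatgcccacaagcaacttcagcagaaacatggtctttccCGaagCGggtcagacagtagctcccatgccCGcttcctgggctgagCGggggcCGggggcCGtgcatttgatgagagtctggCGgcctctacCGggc
Gabra3 (RefSeq, GRCm38.p6, chrX:72656920-72657169, minus strand): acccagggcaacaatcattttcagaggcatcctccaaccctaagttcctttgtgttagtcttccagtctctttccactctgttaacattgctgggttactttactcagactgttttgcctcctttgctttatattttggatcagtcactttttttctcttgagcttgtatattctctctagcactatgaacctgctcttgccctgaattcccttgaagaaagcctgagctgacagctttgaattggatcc
Gabrq (RefSeq, GRCm38.p6, chrX:72824928-72825177, plus strand): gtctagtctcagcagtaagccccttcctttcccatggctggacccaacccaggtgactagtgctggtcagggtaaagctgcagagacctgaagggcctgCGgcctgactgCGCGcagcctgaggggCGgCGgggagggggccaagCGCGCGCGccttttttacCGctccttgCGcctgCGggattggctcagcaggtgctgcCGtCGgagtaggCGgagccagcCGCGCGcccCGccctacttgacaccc

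The windows of Gabrg3 and Gabra5 both held 9 CpG dinucleotides, with a GC content of 60.4% and 56.4%. Those of Gabra3 and Gabrq held 0 and 19 CpG dinucleotides, with 42.4% and 67.2% GC, against a median of 6 over 32851 such windows. Of the 36 receptor genes 23 had a window, 27 windows in all. The cyclic AMP response element TGACGTCA, searched on both strands, matched none of the 27 windows and 1.55% of all windows. The E-box CAGATG of NeuroD-type factors, searched likewise, matched the windows of Gabra5, with its first base 223 bases before the start, and of Grin3b, and 14.4% of all windows. A match describes the letters only.

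Other genes of these synapses were lower more often than higher in the 8 libraries. Of 85 genes in 8 lists 83 were tested, with 6 higher and 20 lower in withdrawal and a median log2 change of -0.06, against 4.80% and 6.17% of all tested genes and a median of 0.01. The 26 calls numbered 15 without control 3 and 14 without withdrawal 5. Over all 10 libraries 0 of the 83 passed in edgeR and 3 in DESeq2. Of 24 excitatory postsynaptic scaffold genes 8 fell and 0 rose (median -0.18). The hippocampal and cortical neuron markers, which were lower in withdrawal as given above, moved with them. Camk2a had 2151 CPM in withdrawal 2, 6910.3 CPM in control 2 and 2057 CPM in control 3, against 193 to 373 CPM in the 5 withdrawal libraries, and Homer1 and Dlgap2 were likewise highest in withdrawal 2 and in controls 2 and 3. The part of these markers in the scaffold genes was not tested. The largest fall was that of Camk2a, the alpha subunit of the calcium-dependent kinase of forebrain synapses, with 279 ± 78.8 CPM in withdrawal and 1316 ± 644 CPM in controls (SD, n = 5 and 3; log2 change -2.24, SE 0.292, edgeR adjusted p = 0.00237). Genes of the scaffold proteins Dlgap2, Homer1 and Dlg3 and the kinase Camk2b also fell. In the order Dlgap2, Homer1, Camk2b and Dlg3 they fell by 1.69, 1.10, 0.83 and 0.58 on the log2 scale (edgeR adjusted p from 0.00707 to 0.0181).

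Of 18 AMPA receptor auxiliary and clustering genes 5 fell and 2 rose (median -0.08), against 6.17% and 4.80% of all tested genes. Cnih3, a cornichon that slows AMPA receptor closing, fell, with 18.6 ± 1.61 CPM in withdrawal and 36.3 ± 7.53 CPM in controls (SD, n = 5 and 3; log2 change -0.97, SE 0.125, edgeR adjusted p = 0.00228). Shisa7 and Cacng8, counted among the auxiliary genes, and Nptx1, a secreted pentraxin that clusters the receptors, fell by 0.75, 1.05 and 1.00. Cacng8 had 95.8 CPM in withdrawal 2, 227 CPM in control 2 and 78.7 CPM in control 3, against 20.4 to 30.5 CPM in the 5 withdrawal libraries. Cnih3 and Shisa7 were likewise highest in withdrawal 2 and in controls 2 and 3, and Nptx1 was highest in controls 2 and 3. Cacng2, or stargazin, and the pentraxin receptor Nptxr rose by 0.48 and 0.62. Of the 2 kainate auxiliary genes Neto1 fell (log2 change -0.91, SE 0.243, edgeR adjusted p = 0.04). It had 69.8 CPM in withdrawal 2, 113 CPM in control 2 and 79.8 CPM in control 3, against 25.0 to 32.3 CPM in the 5 withdrawal libraries. The part of the hippocampal and cortical neuron markers in the falls of these auxiliary and clustering genes was not tested. Among the 6 tested delta receptor ligands the cerebellins Cbln1 and Cbln4 rose, by 0.92 and 1.03 (edgeR adjusted p = 0.0443 and 0.0403), and the list median was 0.21. Both were lowest of the 8 libraries in control 3, at 35.6 and 48.5 CPM. Cbln1 had 17.1 CPM in withdrawal 2 and 2.15 CPM in control 2, and Cbln4 had 2.66 and 6.62 CPM. The part of the habenula and thalamic markers in these rises was not tested.

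On the inhibitory side, 1 of 13 scaffold and trafficking genes fell, against 6.17% of all tested genes. It was Plcl1, a binding partner of GABA-A receptors (log2 change -0.49, SE 0.0910, edgeR adjusted p = 0.00983, list median 0.05). The chloride importer Slc12a2 fell (log2 change -0.84, SE 0.188, edgeR adjusted p = 0.0214), while Slc12a5, the exporter, had a log2 change of 0.22 and did not pass (edgeR adjusted p = 0.125). The 5 ependyma and choroid plexus markers (Ttr, Folr1, Kl, Foxj1 and Ccdc153) summed to 194 to 9389 CPM in the 5 withdrawal libraries and 7061 to 9859 CPM in the 3 controls. Slc12a2 was lowest in the libraries with the least Ttr, at 142 CPM in withdrawal 3 (Ttr 38.9 CPM) and 128 CPM in control 2 (Ttr 27.03 CPM), and the part of these markers in its fall was not tested. Of 8 tested genes of GABA and glycine handling Slc6a11, a GABA transporter of astrocytes, rose (log2 change 0.71, SE 0.137, edgeR adjusted p = 0.0123). Slc6a11 was lowest of the 8 libraries in control 3, and had 132.6 CPM in withdrawal 2 and 139.6 CPM in control 2. Its 10-library log2 change was 0.74 (edgeR adjusted p = 0.408). The part of the habenula and thalamic markers in the rise of Slc6a11 was not tested. Slc6a13, a GABA transporter of the meninges and vessels, fell (log2 change -1.65, SE 0.315, edgeR adjusted p = 0.0114), and the list median was -0.06. Of the 8 tested genes of this list 1 was thus called higher and 1 lower, against 4.80% and 6.17% of all tested genes. Of 10 genes of glutamate and D-serine handling 3 fell and 1 rose (median -0.19), against 6.17% and 4.80% of all tested genes. Glul, the glutamine synthetase of astrocytes, had 1038, 1002, 1044, 1009.6 and 899.7 CPM in withdrawal 1, 3, 4, 5 and 6, against 1633, 1715 and 1590.0 CPM in controls 1, 3 and 4 (log2 change -0.72, SE 0.0671, edgeR adjusted p = 4.75e-04). In these 8 libraries the groups were far apart for Glul. It had 1511 CPM in withdrawal 2, not far below control 4, and 2089 CPM in control 2. Over all 10 libraries the groups of Glul still did not overlap, with a log2 change of -0.70 (edgeR adjusted p = 0.158). Slc1a2, a glutamate transporter of astrocytes, and Srr, which makes D-serine, fell by 0.50 and 0.33, and the vesicular glutamate transporter gene Slc17a6 rose by 0.78. Slc17a6 was lowest of the 8 libraries in control 3 (217 CPM), and had 85.0 CPM in withdrawal 2 and 5.35 CPM in control 2. The part of the habenula and thalamic markers in its rise was not tested. The 6 astrocyte markers (Gfap, Aqp4, Aldh1l1, Slc1a3, Gja1 and S100b) summed to 1390.5 to 1608 CPM in the 5 withdrawal libraries and 1768 to 1805 CPM in the 3 controls, and their part in the glial genes was not tested.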

How the data were processed

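Bulk RNA-seq of 10 mice was used, with 1 library per mouse and groups from the sample titles. The table holds read counts and FPKM per gene, both made by the authors and deposited without a statement of gene lengths. Per the submitters' processing notes, cutadapt 1.9.1, HISAT2 2.2.1, HTSeq 0.6.1 and build mm39 were used. The annotation release and strand setting are not given in the sources used here, so overlapping antisense reads cannot be separated. The counts as deposited were tested with edgeR 4.0.16 (R 4.3.3) on genes averaging 0.3 FPKM or more, with TMM scaling and no covariates. DESeq2 1.42.0, limma 3.58.1 on log2(FPKM + 1) and log2(FPKM + 0.1), another FPKM minimum, a replicate block and leaving out each library were alternatives. Scripts were tested on simulated data. Gene symbols were matched by ID to GENCODE M21 for 52073 of 56691 rows.

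The members, gene lists and the comparison without withdrawal 2 and control 2 were chosen with earlier results of these data known. Receptor genes given with per-library values were those called in either comparison, plus, in each family, the gene with the smallest unadjusted p in the 8 libraries and the one with the highest mean FPKM. Other synapse genes were named by smallest p, up to 6 a list. Others named with single values were chosen after their values were seen. A few genes are not reported here by name or value, and counts include them.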

Additional observations from a re-analysis of the deposited data

Results flagged for a closer look

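Each value below lay far from the other libraries of its group by Dixon's gap criterion, which chance meets in about 1 in 20 groups. The criterion was applied to 96 groups of CPM values, of which 12 named withdrawal 2, 7 named control 2 and 2 named another library. Levels high in withdrawal 2 among the 6 withdrawal libraries were those of Grik3 at 86.8 CPM (others 46.2 to 57.4), Gria3 at 179 CPM (others 52.1 to 92.2), Grik5 at 125 CPM (others 103 to 109), Gria1 at 1018 CPM (others 570.0 to 684), Grin2b at 375 CPM (others 54.4 to 104), Gria2 at 1069 CPM (others 343 to 481), Gabra5 at 77.5 CPM (others 21.7 to 32.8) and Grin2a at 133 CPM (others 54.3 to 71.5). Levels low in withdrawal 2 were those of Glra1 at 0 CPM (others 1.56 to 2.43), Gria4 at 60.01 CPM (others 152 to 201), Glra3 at 2.42 CPM (others 24.2 to 35.3) and Grin3a at 26.4 CPM (others 125 to 147). Levels high in control 2 among the 4 controls were those of Gria3 at 414 CPM (others 72.1 to 127), Grin2c at 89.97 CPM (others 26.2 to 33.2), Grin1 at 693 CPM (others 169 to 232), Glrb at 261 CPM (others 169 to 182), Gabra4 at 179 CPM (others 76.6 to 92.4), Grid1 at 96.9 CPM (others 43.5 to 51.1) and Grin2a at 779 CPM (others 101 to 217). These 2 libraries are the ones with low medial habenula markers, and the part of that difference in these values was not tested. Gria4 in withdrawal 3, at 201 CPM, stood above the other 4 withdrawal libraries of the smaller comparison (152 to 160.4 CPM). Glra2 in control 1, at 19.5 CPM, stood above the other 3 of all 4 controls (10.4 to 11.9 CPM).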

How the results depend on the processing

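Over all 10 libraries, the 0 receptor genes called by edgeR became 4 with DESeq2 and 0 to 4 when 1 library was left out. The 27 genes called in all became 414 with DESeq2, 14 with limma on log2(FPKM + 1), 7 with limma on log2(FPKM + 0.1) and 3 with the replicate block, and ranged from 4 to 802 when 1 library was left out. The 0 other synapse genes became 3 with DESeq2 and 0 to 6. In the 8 libraries, leaving out 1 more gave 4 to 17 receptor genes (12 with all 8), 850 to 2997 of all genes (2113) and 14 to 28 other synapse genes (26). The replicate block gave 1232 of all genes, 18 other synapse genes and 9 receptor genes (8 higher and 1 lower). Of these 9, 6 were also among the 12, while Gria1, Gabra5, Gabrq, Glra1 and Grin3a were not called with the block. The labels state no pairing by replicate number. Same-numbered libraries correlated at 0.030, 0.30, -0.14 and 0.29 in their deviations from the group means. Control 2 correlated best with withdrawal 2, and controls 1, 3 and 4 with withdrawal 6. These correlations cannot decide whether the numbers mark pairs, since marker levels of several cell types also differed between libraries.

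Among the genes given with values per library, signs turned only for values near 0 that were not called. In all 10 libraries Grid1 was 0.016 and 0.019 in the limma fits with pseudocounts of 1 and 0.1. Leaving out 1 library gave -0.24 to 0.19 for Grid1 and -0.037 to 0.18 for Glrb. In the 8 libraries Grin1 ranged from -0.23 to 0.010. The causes were not tested. With 5 and 3 libraries, single libraries moved many calls, and Glra1 rests on few counts.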
